A study of Mus musculus with 15 samples.

Results

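Decay of the mRNAs for the BTG, TOB, Gadd45 and Ifrd proteins was followed in C2C12 myoblasts after transcription was blocked. Members were the 10 genes Btg1, Btg2, Btg3, Tob1, Tob2, Gadd45a, Gadd45b, Gadd45g, Ifrd1 and Ifrd2, and a probe set was taken for a gene when the platform annotation gave it that single symbol. This left 9 of the 10 genes, each with 1 probe set, out of 19452 genes with such a probe set. Btg3 was measured only by 2 probe sets that carry a second gene symbol, so it was not named and has no value here. A probe set was called expressed when 2 or more of the 3 arrays at 0 min put it above their median, which held for all 9 genes, for 12544 of 25175 probe sets and for 9879 genes.

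C2C12 is a line of mouse myoblasts, the dividing precursors that fuse into muscle fibers once growth factors are withdrawn. The cells on all 15 arrays were the same stable line with the empty lentiviral vector LKO1, grown in puromycin and kept below 70% confluency so that they would not differentiate. Every group received 8 µg/mL actinomycin D, which binds DNA and stops RNA synthesis, for 30 min before the sample called 0 min, and the groups differ only in the time after that (0, 10, 50, 110 or 230 min, with 3 replicate arrays each). Untreated cells were not among these arrays, and whether the line is 1 clone is not given in the sources used here.

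BTG and TOB proteins share a small N-terminal domain that binds the deadenylase subunits of the CCR4-NOT complex, and by this contact they can speed the removal of poly(A) tails and slow cell division. Gadd45 proteins are small acidic stress proteins that bind PCNA, the cyclin B1 kinase and the kinase MTK1. Ifrd1 (Tis7) is a co-regulator that binds SIN3 and histone deacetylases and is known in skeletal muscle for its part in myoblast differentiation and regeneration. Several of these genes were first found as transcripts induced quickly by serum, growth factors, differentiation signals or DNA damage.

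Values are ratios to the 5th percentile of the array, and a ratio of 1 is therefore about as dim as the dimmest probe sets. The median of an array lay between 2.42 and 2.74 at 0 min and between 1.44 and 1.72 at 230 min, and the 75th percentile fell from between 7.80 and 9.81 to between 2.89 and 4.63. Of 8 myoblast markers 7 were matched and 7 expressed, Myod1 at 24.6 to 30.0 at 0 min, whereas 5 of 9 myotube markers and 2 of 8 fibroblast and adipocyte markers were expressed. Adipoq and Fabp4 were at 1.21 to 1.37 at 0 min, near the dimmest probe sets, but the 8 fibroblast and adipocyte markers together summed to 23.7 to 29.2. The summed level of the 9 myotube markers was 26.3 to 46.3 at 0 min, with Myog between 2.25 and 3.14, so other myotube markers held most of that sum. The 7 matched myoblast markers summed to 120 to 156. The 3 replicates are fitted as separate time courses, and the study repeated the experiment in triplicate, with 1 array for each time. Whether the 3 repeats came from independently grown cultures is not stated, and the p-values reach no further than these repeats. Those of limma rest on the scatter of the arrays around the fit, shared over probe sets. Those of the pairs rest on the order of the times within each time course. Those of the half-lives rest on the 5 arrays of 1 time course.

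The slopes of the members ranged widely. A straight line through the log2 ratios against time, with the replicate as a block, gave slopes from -0.92 log2 per hr for Ifrd1 to -0.25 for Btg2, with a median of -0.45 against -0.25 over all expressed probe sets. All 9 fell (limma, adjusted p under 0.05), which is close to the background, since 96.4% of expressed probe sets fell and 0.0239% rose. Each array was labeled from a fixed amount of total RNA, so neither the number of cells nor the RNA per cell is measured. A ratio on 1 array shows a transcript only relative to the others on it.

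How far a slope lies from that of the typical transcript does not change with the scaling of the arrays, because dividing each array by another percentile moves every slope by the same amount. The slope minus the median over all expressed probe sets was -0.67 log2 per hr for Ifrd1 and -0.58 for Btg1. It was -0.36 for Tob1, -0.35 for Gadd45g, -0.20 for Gadd45a and -0.19 for Gadd45b, and close to 0 for Ifrd2 (-0.04), Tob2 (-0.02) and Btg2 (0.0017). The share of expressed probe sets with a steeper slope was 0.231% for Ifrd1, 0.327% for Btg1, 1.83% for Tob1, 2.02% for Gadd45g, 8.75% for Gadd45a, 10.0% for Gadd45b, 35.0% for Ifrd2, 41.8% for Tob2 and 50.7% for Btg2. Subtracting 1 from every ratio, an alternative chosen after seeing the data, is not such a division and changed these shares. The median slope became -0.33, and the shares were 25.7% for Tob2, 39.0% for Btg2 and 50.4% for Ifrd2. Those of the other members ran from 0.231% for Ifrd1 to 17.3% for Gadd45b. Without the 230 min arrays the slopes of Ifrd1 (-1.51), Gadd45g (-1.15) and Btg2 (-0.40) were over 1.5 times those over all times, and the median over all expressed probe sets was -0.36.

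The count that fell depends on the scaling. With each array divided by its median, 8 of 9 members fell and Btg2 did not pass (-0.07 log2 per hr), beside 37.8% of expressed probe sets that fell, 1.96% that rose and a median slope of -0.07. Division by the 75th percentile of the array left 6 that fell (Ifrd1, Btg1, Tob1, Gadd45g, Gadd45a and Gadd45b), Btg2 rose (0.07, limma adjusted p = 0.022) and 2 did not pass (Tob2 at 0.05 and Ifrd2 at 0.03), beside 15.7% of expressed probe sets that fell, 50% that rose and a median slope of 0.07. With 1 subtracted from every ratio, an alternative chosen after seeing the data, all 9 fell, beside 95% of expressed probe sets that fell and 0.0159% that rose.

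**Figure D1:**
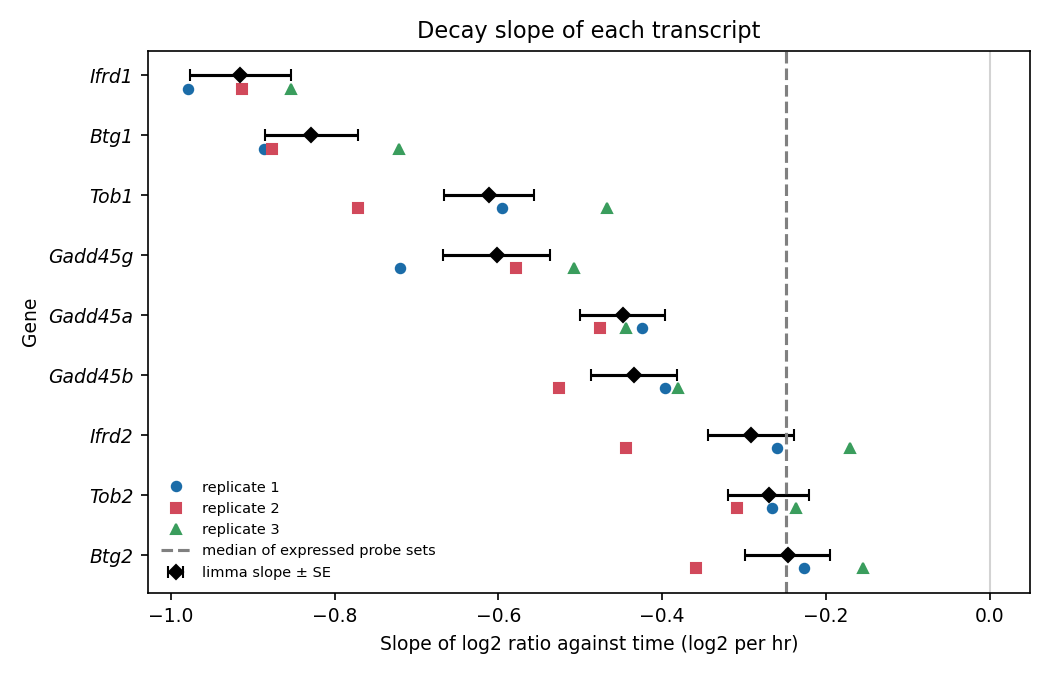
Slope of the log2 ratio against time (horizontal axis, log2 per hr) for each of 9 genes. Black diamonds with bars are the limma slope ± SE, colored points the slope in each of 3 replicate time courses, and the dashed line the median of all expressed probe sets (-0.25). Ifrd1 and Btg1 lie farthest to the left, and Ifrd2, Tob2 and Btg2 lie at the dashed line, where the sign of the slope changes if each array is divided by its 75th percentile.

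Btg1 encodes a small antiproliferative protein first found at a chromosome translocation in B-cell leukemia. Its probe set (10365971, chromosome 10) read 43.3, 36.9 and 33.7 at 0 min in replicates 1, 2 and 3, and 36.7, 37.1 and 28.4 at 10 min. The values were 22, 29.9 and 20.6 at 50 min, 5.88, 9.22 and 9.49 at 110 min, and 4.59, 4.23 and 5.03 at 230 min. The 10 min arrays overlap with those at 0 min, and all arrays from 50 min on lie below them. Between 50 and 110 min the mean dropped from 24.15 ± 5.004 to 8.20 ± 2.01 (SD, n = 3), a log2 change of -1.57 (SE 0.216, limma adjusted p = 1.0e-08). At 230 min 12.3 ± 2.29% (SD, n = 3) of the 0 min level was left. The slope was -0.83 log2 per hr (SE 0.0569, limma adjusted p = 2.2e-20), and Btg1 was the member that also fell between 110 and 230 min (-0.80, SE 0.216, limma adjusted p = 0.026), as did 2.12% of expressed probe sets.

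Btg2 (PC3, Tis21) encodes the closest relative of Btg1 and is known as an immediate early gene and a p53 target. Its probe set (10357875, chromosome 1) read 3.67, 6.07 and 3.31 at 0 min in replicates 1, 2 and 3. At 50 min the values were 3.56, 4.74 and 3.77, at 110 min 1.62, 3.17 and 2.91, and at 230 min 2.26, 2.23 and 2.34. Replicate 2 was the highest at 4 of 5 times, and the 50 min arrays overlap fully with the 0 min ones. A mean of 96.3 ± 17.9% (SD, n = 3) of the 0 min level remained at 50 min and 56.3 ± 17.6% at 230 min. The slope was -0.25 log2 per hr (SE 0.0521, limma adjusted p = 2.2e-05) as deposited and not below 0 on the 75th percentile scale. After subtraction of 1 from every ratio it was -0.37. Btg2 was low as well, its 1.62 in replicate 1 at 110 min being next to the median of that array, 1.59. How much of its signal is background was not tested.

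Tob1 and Tob2 are the larger members of the family, whose C-terminal part also binds the poly(A)-binding protein. Tob1 (probe set 10380381, chromosome 11) read 17.3, 17.9 and 8.94 at 0 min in replicates 1, 2 and 3, then 10.4, 14.8 and 9.95 at 10 min and 9.0, 10.4 and 10.5 at 50 min. It was at 3.91, 4.47 and 5.0 at 110 min and 3.15, 2.33 and 3.03 at 230 min. Replicate 3 started at about the level of the others at 50 min and did not drop until after 50 min, so the 0 and 50 min groups overlap. The arrays at 110 and 230 min lie below all those at 0 min. The slope was -0.61 log2 per hr (SE 0.0553, limma adjusted p = 2.3e-15), from -0.77 in replicate 2 to -0.47 in replicate 3.

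Tob2 (probe set 10430770, chromosome 15) had the narrowest spread at 0 min of the BTG and TOB genes, at 3.60, 3.64 and 3.44 in replicates 1, 2 and 3. It was still at 3.16, 3.0 and 4.0 at 50 min, which spans the 0 min values. At 110 min it read 2.16, 2.39 and 2.23 and at 230 min 1.95, 1.62 and 2.03, all below 0 min. At 230 min 52.6 ± 7.39% (SD, n = 3) of the 0 min level was left, and the slope was -0.27 log2 per hr (SE 0.0494, limma adjusted p = 1.8e-06). With 1 subtracted from every ratio the slope was -0.45, and on the 75th percentile scale it was 0.05 and did not pass. Tob2 was not far above the array medians, 2.42 to 2.74 at 0 min and 1.44 to 1.72 at 230 min. How much of its signal is background was not tested.

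**Figure D2:**
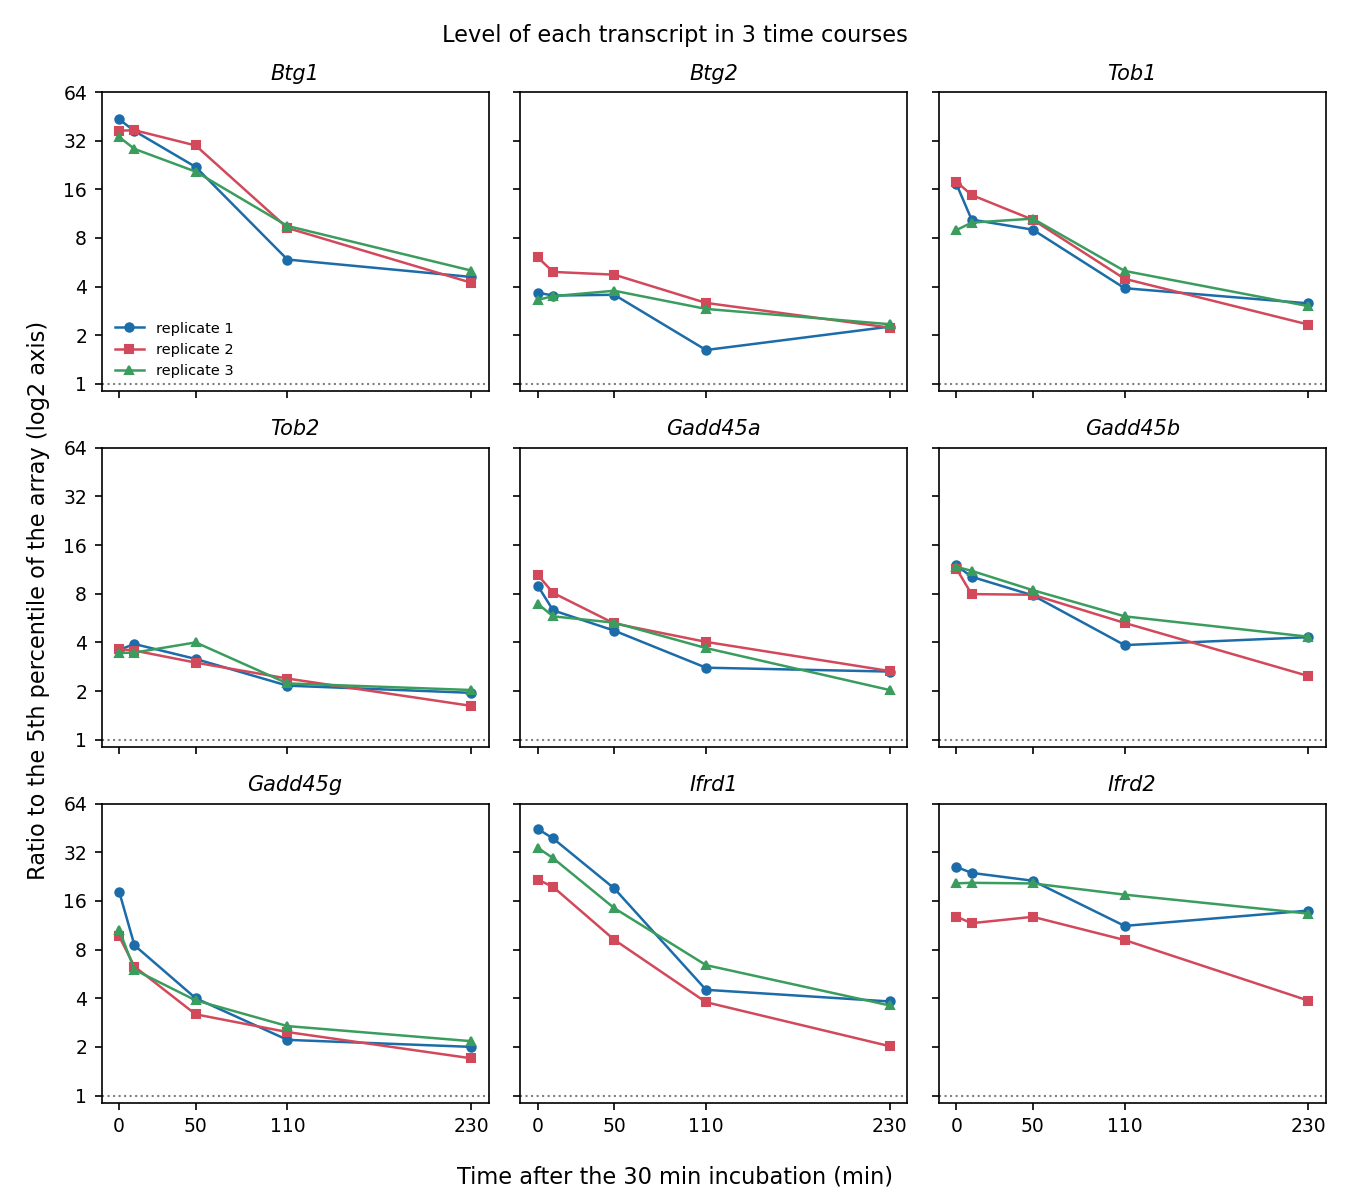
Ratio to the 5th percentile of the array (vertical axis, log2 axis) against time in min after the 30 min incubation (horizontal axis) for 9 genes. Each line is 1 of 3 replicate time courses and the dotted line at 1 marks the dimmest probe sets. Gadd45g drops from the first interval on, Ifrd1, Gadd45g and Btg1 are the lowest relative to 0 min at 110 min, and replicate 2 of Ifrd1 and Ifrd2 lies below the others at all 5 times.

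Gadd45g (CR6) had the lowest share left at 10 and 50 min of the 9. Its probe set (10405211, chromosome 13) read 18.3, 9.65 and 10.6 at 0 min in replicates 1, 2 and 3 and 8.50, 6.28 and 6.0 at 10 min. At 50 min it read 4.0, 3.18 and 3.88, at 110 min 2.21, 2.47 and 2.69, and at 230 min 2.0, 1.70 and 2.17. All arrays at each later time lie below all those at 0 min, and replicate 1 started highest. A mean of 56.1 ± 9.28% (SD, n = 3) of the 0 min level was left at 10 min, 30.5 ± 7.67% at 50 min and 16.4 ± 4.89% at 230 min. The change at 50 min was -1.75 on the log2 scale (SE 0.215, limma adjusted p = 9.8e-10), and the trend over all times was -0.60 log2 per hr (SE 0.0650, limma adjusted p = 1.4e-12). Without the 230 min arrays the trend was -1.15, with 0.590% of expressed probe sets steeper, and without the 0 min arrays it was -0.45, with 7.66% steeper.

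Gadd45a is the p53-induced member of the family, first found as a growth arrest and DNA damage transcript. Its probe set (10545130, chromosome 6) read 8.98, 10.5 and 6.94 at 0 min in replicates 1, 2 and 3, and 4.73, 5.24 and 5.30 at 50 min. It was at 2.79, 4.03 and 3.69 at 110 min and 2.64, 2.66 and 2.03 at 230 min. The arrays at 50 min and later lie below the 0 min arrays, whereas those at 10 min (5.80 to 8.10) overlap with them. The level at 230 min was 28.0 ± 2.28% (SD, n = 3) of that at 0 min, and the slope was -0.45 log2 per hr (SE 0.0516, limma adjusted p = 1.2e-11).

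Gadd45b (MyD118), known as a target of NF-κB and TGF-β signaling, had almost equal values at 0 min. Its probe set (10364950, chromosome 10) read 11.98, 11.46 and 11.74 in replicates 1, 2 and 3, then 10.2, 7.96 and 11.1 at 10 min and 7.82, 7.89 and 8.42 at 50 min. It read 3.85, 5.28 and 5.80 at 110 min and 4.31, 2.48 and 4.34 at 230 min. No later array reaches the 0 min values. The slope was -0.43 log2 per hr (SE 0.0521, limma adjusted p = 4.3e-11), and 31.5 ± 8.58% (SD, n = 3) of the 0 min level was left at 230 min.

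Ifrd1 had the steepest slope of the 9 transcripts. Its probe set (10400095, chromosome 12) read 44.6, 21.7 and 34.1 at 0 min in replicates 1, 2 and 3, 39.0, 19.6 and 29.4 at 10 min, and 19.1, 9.20 and 14.4 at 50 min. The values were 4.51, 3.78 and 6.41 at 110 min and 3.82, 2.02 and 3.61 at 230 min. Replicate 2 was the lowest at all 5 times, yet the share left at 50 min was 42.8, 42.4 and 42.3% of the 0 min level, a mean of 42.5 ± 0.268% (SD, n = 3). The share left differed more at 110 min, at 10.1, 17.4 and 18.8%, and was 9.49 ± 1.02% (SD, n = 3) at 230 min. The slope was -0.92 log2 per hr (SE 0.0618, limma adjusted p = 1.1e-20), and the change at 50 min was -1.23 (SE 0.213, limma adjusted p = 3.0e-05).

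Ifrd2 is the paralog of Ifrd1, whose protein was found on idle ribosomes in rabbit reticulocytes. Its probe set (10588707, chromosome 9) read 26, 12.8 and 20.6 at 0 min in replicates 1, 2 and 3 and 21.3, 12.8 and 20.5 at 50 min. At 110 min it read 11.2, 9.17 and 17.5 and at 230 min 13.9, 3.87 and 13.4. Replicate 2 was again the lowest at all 5 times, and the 0 and 230 min groups overlap. The slope was -0.29 log2 per hr (SE 0.0526, limma adjusted p = 1.4e-06), -0.44 in replicate 2 against -0.26 and -0.17 in replicates 1 and 3, and 0.03 on the 75th percentile scale. A mean of 93.9 ± 10.2% (SD, n = 3) remained at 50 min and 49.6 ± 17.7% at 230 min.

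Each later time was then compared with 0 min, which shows when a change first passed the test. At 10 min 0 of 9 passed, as did 0% of expressed probe sets, and 1 had an unadjusted p under 0.05 (Gadd45g, -0.85, limma adjusted p = 0.81). All 3 arrays at 10 min were below all 3 at 0 min for 2 members, Gadd45b and Gadd45g, and for 5.14% of expressed probe sets. At 50 min 3 of 9 had fallen (Gadd45g, Ifrd1 and Gadd45a) against 1.99% of expressed probe sets, and 5 had arrays that did not overlap with 0 min, against 16.5%. Gadd45a (-0.77, SE 0.212, limma adjusted p = 0.025) did not pass when any 1 replicate was left out (limma adjusted p = 0.14 to 0.38), and without the replicate as a block only Gadd45g passed, Ifrd1 having an adjusted p of 0.066 by limma. Gadd45a was lost also with arrays divided by their median (limma adjusted p = 0.082) or with 1 subtracted (0.076), which left 2 members at 50 min. Btg1 was at -0.66 at 50 min and did not pass (limma adjusted p = 0.090), but did on the 75th percentile scale (-0.50, limma adjusted p = 0.026), which gave 4.

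By 110 min all 9 had fallen, as had 84.8% of expressed probe sets (0.0399% had risen), and by 230 min again all 9, against 94.3%. At both times 8 members had arrays that did not overlap with those at 0 min, against 72.9% of expressed probe sets at 110 min and 84.3% at 230 min, and Ifrd2 was the member that overlapped. Ifrd2 (-0.64) did not pass at 110 min without replicate 1 (-0.36, limma adjusted p = 0.20) or without the replicate block (0.13), and Btg2, Tob2 and Ifrd2 did not pass there when arrays were divided by their median or 75th percentile. At 230 min the same 3 did not pass after division by the median, where 3588 of 12544 expressed probe sets were lower and 209 higher. On the 75th percentile scale 6 members were lower, Btg2 was higher (0.29, limma adjusted p = 0.049), and Tob2 and Ifrd2 did not pass. There 1825 of the 12544 expressed probe sets were lower and 5503 higher, and the median change over all of them was 0.26, close to that of Btg2. Between 50 and 110 min 9 of 9 members and 75.6% of expressed probe sets fell (0.0638% rose), with log2 changes from -1.57 for Btg1 and -1.51 for Ifrd1 to -0.55 for Ifrd2. The median change of the members was -0.54 from 0 to 50 min, -0.70 from 50 to 110 min and -0.45 from 110 to 230 min. Over all expressed probe sets the medians for these intervals were -0.11, -0.60 and -0.23. From 10 to 50 min, 2 members passed, Ifrd1 (-1.05, limma adjusted p = 0.0042) and Gadd45g (-0.90, limma adjusted p = 0.031), against 0.255% of expressed probe sets. The array medians and 75th percentiles dropped most between 50 and 110 min, the latter from between 7.36 and 7.84 to between 3.90 and 5.46, and their part in the members' loss in that interval was not tested.

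The shape of the decay was compared between an early rate, from 0 to 50 min, and a late rate, from 50 to 230 min. Gadd45g fell by 2.10 ± 0.470 log2 per hr (SD, n = 3 time courses) early and by 0.30 ± 0.0271 late, and its early rate was steeper in 3 of 3 time courses. The difference was -1.79 log2 per hr (SE 0.300, limma adjusted p = 0.00020), and it was the 1 member of 9 that passed, against 0.143% of expressed probe sets with a steeper early rate and 0.0319% with a shallower one. It did not pass without the replicate block (limma adjusted p = 0.082) or when all 25175 probe sets were tested (0.076). At 110 and 230 min Gadd45g was at 1.70 to 2.69, near the ratio of 1 of the dimmest probe sets. With 1 subtracted from every ratio the difference was -2.0 (limma adjusted p = 0.0026). The early rate was steeper in 3 of 3 time courses also for Gadd45a, Gadd45b and Ifrd1. Gadd45a had rates of -0.93 ± 0.400 early and -0.36 ± 0.0942 late, with replicate 3 nearly equal at -0.467 and -0.462. Those of Gadd45b were -0.65 ± 0.0817 and -0.39 ± 0.1475 (SD, n = 3). The differences of Gadd45a (-0.57) and Gadd45b (-0.27) did not pass (limma adjusted p = 0.94 for each).

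Ifrd1 fell by 1.48 ± 0.0109 log2 per hr early and by 0.72 ± 0.0541 late (SD, n = 3), but the difference of -0.76 did not pass (SE 0.298, limma adjusted p = 0.83). It did so when each array was divided by its 75th percentile. Btg1 and Tob1 had nearly equal early and late means, -0.80 ± 0.407 and -0.79 ± 0.135 for Btg1 and -0.60 ± 0.768 and -0.61 ± 0.107 for Tob1 (SD, n = 3). The early rate of Tob1 varied most among replicates, from -1.13 in replicate 1 to 0.28 in replicate 3. Btg2, Tob2 and Ifrd2 had early rates of -0.09, -0.10 and -0.12 and late rates of -0.27, -0.28 and -0.33 log2 per hr. Their early minus late differences, 0.185, 0.185 and 0.212, were close to the median of 0.156 over all expressed probe sets. Those of Btg1 (-0.0069) and Tob1 (0.0113) lay below that median.

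**Figure D3:**
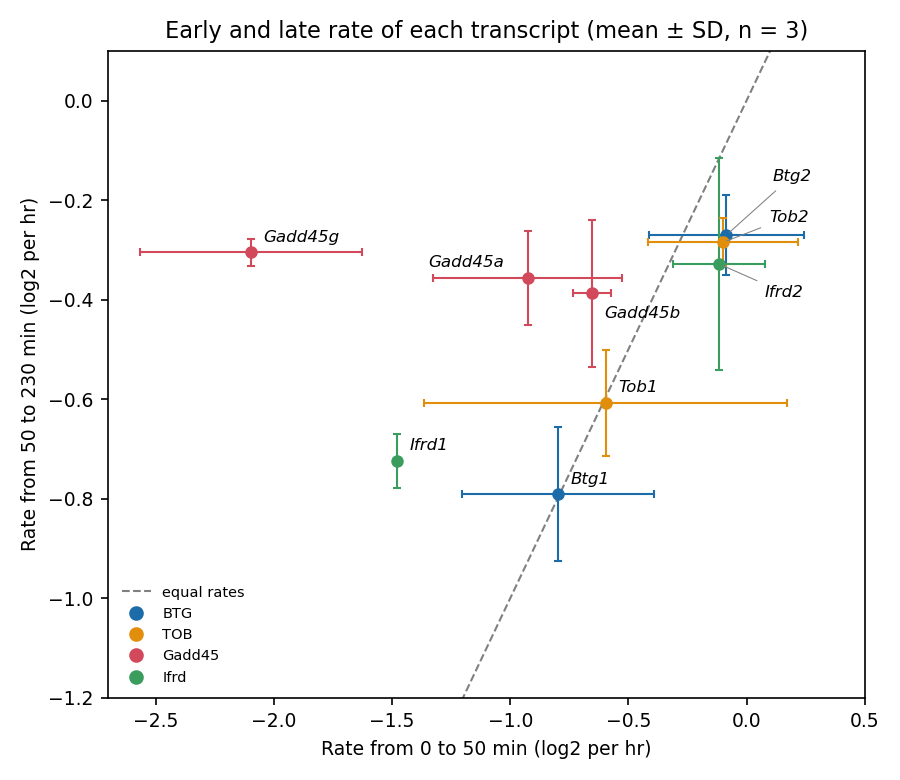
Early rate, 0 to 50 min (horizontal axis), against late rate, 50 to 230 min (vertical axis), both in log2 per hr, as mean ± SD of 3 time courses for each gene. On the dashed line both rates are equal. Gadd45g lies far to the left, at -2.10 early and -0.30 late, and Btg1 and Tob1 lie on the line.

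Members of 1 family were compared within each array, as the difference of their log2 ratios, so that the scaling of the array cancels. The slopes of 6 pairs were tested with an exact two-sided permutation of the times within each time course, adjusted over the 6 pairs. Btg1 fell faster than Btg2, with a difference in slope of -0.58 ± 0.0722 log2 per hr (SD, n = 3 time courses, exact p = 5.2e-06, adjusted p = 2.1e-05). By 230 min the Btg1 to Btg2 ratio had changed by -2.15 ± 0.437 on the log2 scale from its value at 0 min. Tob1 fell faster than Tob2, with a difference of -0.34 ± 0.117 log2 per hr (SD, n = 3, exact p = 6.9e-06, adjusted p = 2.1e-05). Ifrd1 fell faster than Ifrd2, with a difference of -0.62 ± 0.135 log2 per hr (SD, n = 3, exact p = 1.6e-05, adjusted p = 3.1e-05), and the direction was the same in 3 of 3 time courses for each of these 3 pairs. Their difference also passed with 1 subtracted from every ratio, at -0.54, -0.30 and -0.75 log2 per hr. Btg2 and Tob2 lay nearer to the dimmest probe sets than Btg1 and Tob1. The part of background in these differences was not tested.

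The 3 pairs among the Gadd45 transcripts did not pass. Gadd45a and Gadd45b differed in slope by -0.01 ± 0.0583 log2 per hr (SD, n = 3, exact p = 0.75), with individual time courses between -0.06 and 0.05. The slope of Gadd45a minus that of Gadd45g was 0.15 ± 0.123 (SD, n = 3, exact p = 0.065, adjusted p = 0.097) and that of Gadd45b minus that of Gadd45g 0.17 ± 0.139 (SD, n = 3, exact p = 0.088, adjusted p = 0.11). Both passed without the 230 min arrays, at 0.48 (adjusted p = 0.0064, exact permutation test) and 0.51 (adjusted p = 0.026, exact permutation test). They passed likewise with 1 subtracted from every ratio, at 0.24 and 0.31. The log2 ratio of Gadd45a to Gadd45g had risen by 0.98 ± 0.340 at 50 min and was 0.82 ± 0.522 at 230 min (SD, n = 3), no higher than at 50 min.

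**Figure D4:**
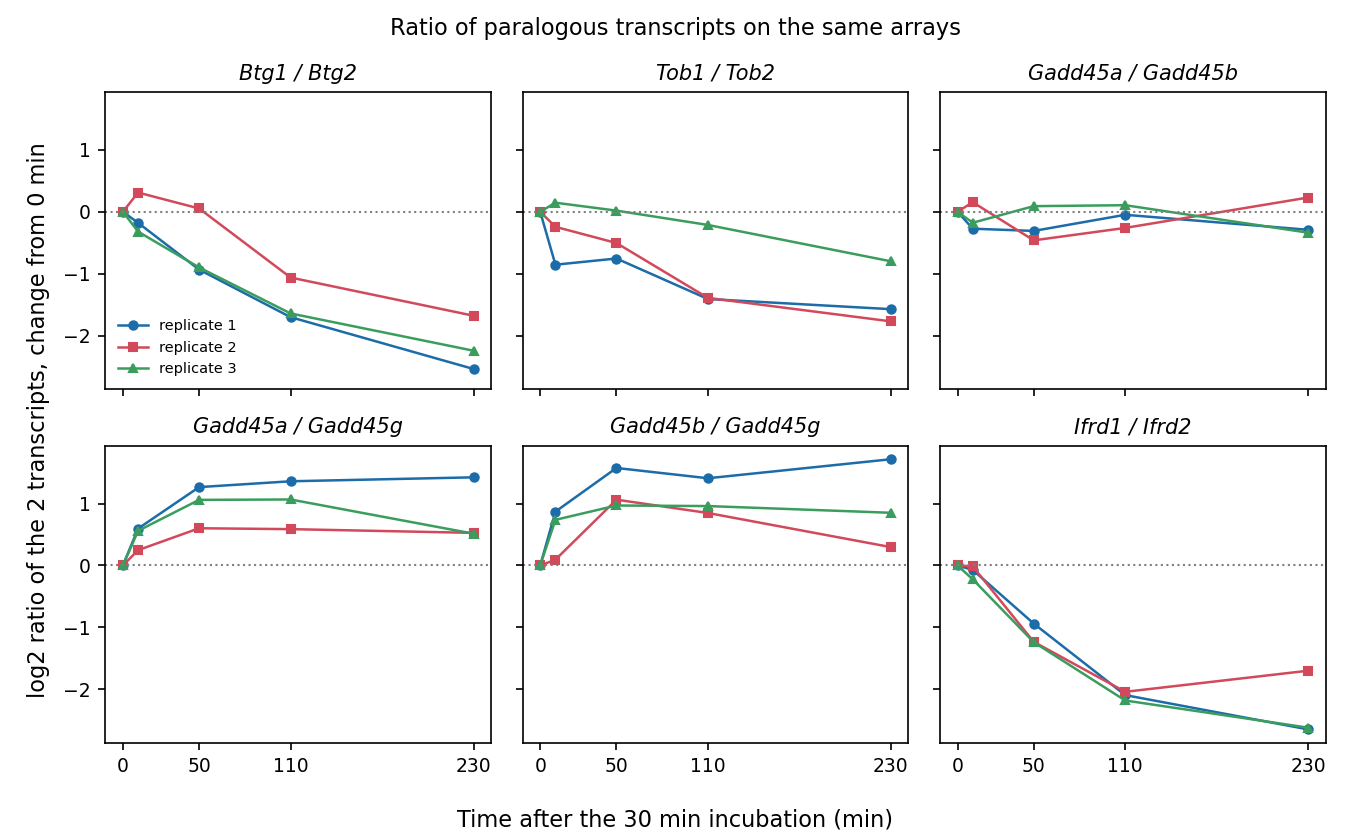
Change from 0 min in the log2 ratio of 2 transcripts of 1 family on the same array (vertical axis) against time in min (horizontal axis), for 6 pairs. Each line is 1 of 3 replicate time courses and the dotted line marks no change. Ratios of Btg1 to Btg2, Tob1 to Tob2 and Ifrd1 to Ifrd2 are below 0 in every time course at 110 and 230 min, whereas Gadd45a to Gadd45b stays between -0.46 and 0.23.

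Half-lives were fitted in each time course as a first-order exponential on the ratios, after the methods of the study, and called reliable where the fit had p under 0.05 and the 95% interval was narrower than 2 half-lives in at least 2 of 3 replicates. Reliable half-lives were obtained for 2 of 9 members, Ifrd1 and Btg1, each in all 3 replicates. Of expressed probe sets, 11.2% were reliable and 1.66% were so in all 3 replicates, and the median of the reliable ones was 2.20 hr. The study itself reports many more mRNAs with reliable half-lives, and a longer median, than the fit here gave. Its text does not say how its intervals were computed, and the reason for the gap was not tested. The half-life of Ifrd1 was 38.9, 43.1 and 44.4 min in replicates 1, 2 and 3, and averaged 42.1 ± 2.84 min (SD, n = 3). In replicate 1 the 95% interval ran from 27.0 to 56.3 min. That of Btg1 was 46.6, 72.1 and 69.2 min and averaged 62.6 ± 14.0 min (SD, n = 3), with an interval of 35.7 to 164 min in replicate 2, the widest of the 3. Of the 1400 reliable half-lives, 6 were shorter than that of Ifrd1 and 53 shorter than that of Btg1. Both means depend on the processing, Ifrd1 being at 65.8 min as a straight line on log2 ratios, and Ifrd1 at 60.03 and Btg1 at 98.2 min on the 75th percentile scale.

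The other 7 members had fits that were reliable in at most 1 time course, and their half-lives are given as fitted values. Gadd45g had 13.3, 45.2 and 53.2 min in replicates 1, 2 and 3 and was reliable in 0 of 3, with an interval from 3.95 to 2225 min in replicate 3. Gadd45g was the 1 member whose early and late rates passed as different. Its fitted mean of 37.2 ± 21.1 min (SD, n = 3) became 9.61 ± 3.29 min with a constant floor and 102 ± 17.4 min as a straight line on log2 ratios. Tob1 had a mean of 90.6 ± 46.8 min, Gadd45a of 104 ± 26.1 min and Gadd45b of 118 ± 15.3 min (SD, n = 3). These lengthened to 138, 193 and 220 min with arrays divided by their median, and to 204, 415 and 487 min by their 75th percentile. Tob2 (216 ± 35.1 min), Ifrd2 (241 ± 111 min) and Btg2 (263 ± 133 min) were the longest, and on the 75th percentile scale Btg2 and Tob2 gave no half-life and Ifrd2 gave 1 in 1 time course. With 1 subtracted from every ratio the means of Tob2, Ifrd2 and Btg2 were 132, 224 and 172 min. The narrowest interval among these 3 was that of Tob2 in replicate 2, from 170 to 214 min. Those of Btg2 in replicates 1 and 3, Ifrd2 in replicate 1 and Tob2 in replicate 3 had no upper bound.

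**Figure D5:**
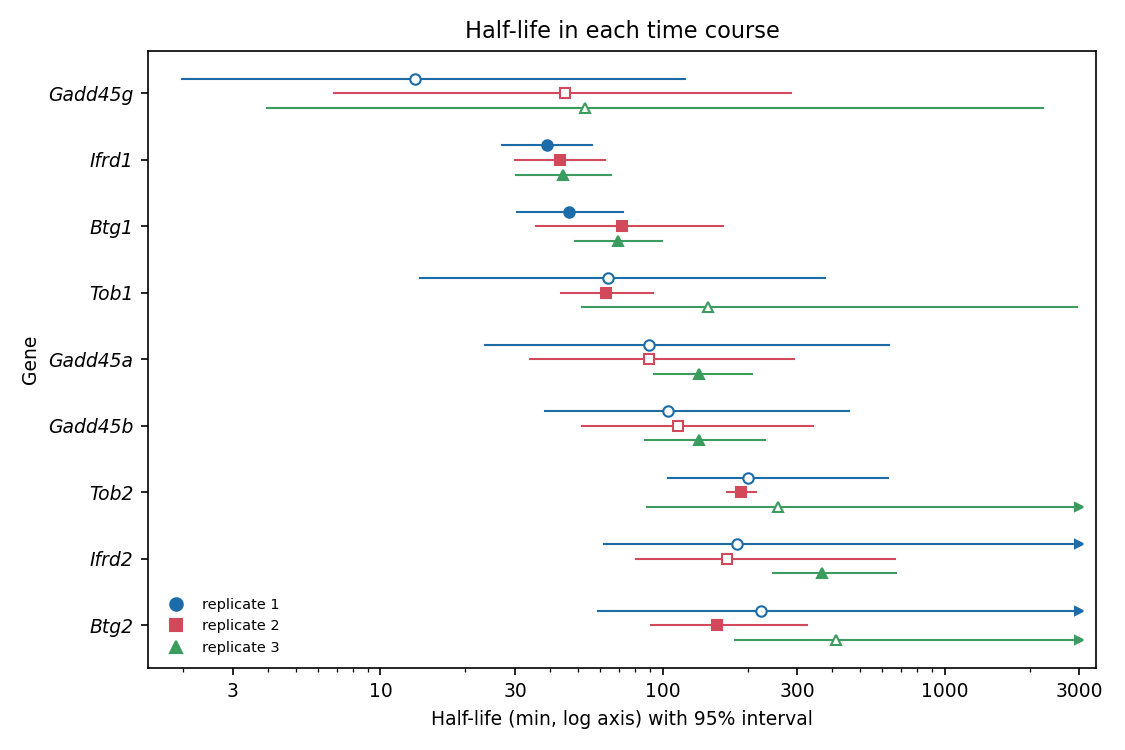
Fitted half-life in min (horizontal log axis) of 9 genes in each of 3 replicate time courses, with the 95% interval as a line. Filled symbols are time courses with a reliable fit, open symbols those without, and an arrow marks an interval that runs past the axis. The 3 intervals of Ifrd1 lie between 27.0 and 65.7 min, and those of Gadd45g span over a decade each.

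Transcripts of the deadenylases and poly(A) proteins that work with BTG and TOB had a median slope of -0.35, against -0.45 log2 per hr for the 9 members. Of 17 listed genes 16 were matched and tested, 15 fell and 1 did not pass, beside the 96.4% of expressed probe sets that fell. Cnot11 (-0.52) and Cnot4 (-0.45), a subunit and an associated ubiquitin ligase of the CCR4-NOT complex, were the steepest. Cnot6, a deadenylase, was at -0.18 (limma adjusted p = 0.0011). Pabpc1, the main cytoplasmic poly(A)-binding protein, was at -0.04 and did not pass (SE 0.0488, limma adjusted p = 0.39). On the 75th percentile scale 6 of the 16 fell, 5 rose and 5 did not pass, and Cnot6 and Pabpc1 had slopes above 0, against 15.7% of expressed probe sets that fell and 50% that rose.

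Of 17 partners and effectors of the Gadd45 proteins, 12 were matched and 10 expressed, and all 10 fell, with a median of -0.34 log2 per hr. Over all expressed probe sets 96.4% fell, with a median of -0.25. Apex1, a repair endonuclease, was at -0.42 and Cdk1, the mitotic kinase, at -0.39. Mapk9 (JNK2) was at -0.20 and Pcna, the sliding clamp, at -0.19. On the 75th percentile scale 2 fell, 3 rose and 5 did not pass, with Mapk9 and Pcna above 0. Of expressed probe sets, 15.7% fell and 50% rose on that scale.

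The corepressors and factors bound by Ifrd1 were matched for 8 of 9 genes, and 8 of 8 fell, with a median of -0.34 log2 per hr. The share that fell among all expressed probe sets was 96.4%, and their median was -0.25. Sin3a, the scaffold of the SIN3 complex, was at -0.62 (SE 0.0526, limma adjusted p = 2.3e-16) and its subunit Sap30 at -0.50. The deacetylases Hdac1 (-0.16) and Hdac3 (-0.15) were the shallowest, and each was above 0 when arrays were divided by their median or 75th percentile. On the 75th percentile scale 4 of the 8 fell, 3 rose and 1 did not pass, beside 15.7% of expressed probe sets that fell and 50% that rose.

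Other genes known to restrain division or to mark quiescence were matched for 24 of 24, of which 21 were expressed and all 21 fell, with a median of -0.39 log2 per hr. This count too lies beside the 96.4% of expressed probe sets that fell, whose overall median was -0.25. Klf6, a zinc finger factor, was at -0.62 (SE 0.0548, limma adjusted p = 8.6e-16) and Gas1, a growth arrest membrane protein, at -0.58, both near Tob1 and Gadd45g. Sesn3, a sestrin, was at -0.17 and Ccng1, the p53-induced cyclin G1, at -0.11 (limma adjusted p = 0.030). On the 75th percentile scale 11 fell, 7 rose and 3 did not pass, with Sesn3 and Ccng1 above 0. The shares over all expressed probe sets were 15.7% that fell and 50% that rose. Without replicate 2, 5 of the partner genes named here did not pass, with limma adjusted p = 0.065 for Cnot6, 0.098 for Pcna, 0.10 for Hdac1, 0.15 for Hdac3 and 0.46 for Ccng1. Ccng1 did not pass without replicate 3 either (0.056 by limma). Btg4, a germline relative of Btg1, was not expressed, at 1.09 to 1.21 at 0 min.

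Across the 15 arrays the members' log2 ratios moved together to different degrees. The highest correlation between members was Pearson's r = 0.967 for Btg1 and Tob1, and the lowest was 0.311 for Btg2 and Ifrd2, where replicate 2 was the highest of the 3 at most times for the first and the lowest at all times for the second. These values share the arrays, their scaling and the fall with time, and are given as a description. Over 9878 other expressed genes, those most like each member were Ankrd50 (r = 0.993) and Arhgap28 (0.992) for Btg1 and Fdps (0.972) and Myl12b (0.970) for Btg2. For Tob1 they were Stard3 (0.984) and Map3k12 (0.982), and for Tob2 Arid1a (0.984) and Smad2 (0.983). Gadd45a was nearest to Dlc1 (0.980) and A930004D18Rik (0.979), and Gadd45b to Cipc (0.990) and Rai1 (0.990). Gadd45g was nearest to the ERK phosphatase genes Dusp6 (0.990) and Dusp5 (0.982), Ifrd1 to Trp53rka (0.993) and Pprc1 (0.992), and Ifrd2 to Wdr77 (0.992) and Ddx18 (0.990).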

How the data were processed

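The data were 15 Mouse Gene 1.0 ST arrays. The deposited values are linear ratios, made by the authors as the signal of a probe set over the 5th percentile of its array. Neither background correction nor summary software is given in the sources used here. Symbols came from the platform annotation, matched by gene number to assembly GRCm38 for chromosomes. The members, the 4 partner lists, the markers and the tests were chosen with earlier results of these data known.

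All 12544 expressed probe sets were fitted on log2 ratios with limma 3.58.1 in R 4.3.3 (eBayes, Benjamini-Hochberg adjustment, threshold 0.05), with time in hours as a trend or time as a factor, and the replicate as a block. Replicate numbers mark time courses that the study fits separately. Among same-numbered arrays 29 of 30 pairs deviated together (correlation over 0.1, median 0.362), against 14 of 60 other pairs (median -0.216). Half-lives were fitted by least squares with scipy 1.17.1 in Python 3.11.15, with 95% profile intervals. Pair slopes used 1728000 exact permutations. The limma fits, the exponential half-life fit and the exact permutation were tested on simulated data. Named genes are the members, the 2 steepest and 2 shallowest of each list and the 2 genes nearest each member by Pearson correlation. In all, 49 alternatives were planned and 5, all subtracting 1 from the ratios, were added after seeing the data. The number of arrays limits the precision.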

Additional observations from a re-analysis of the deposited data

How the results depend on the processing

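All 9 members fell in the trend under every alternative without rescaling. Values rest on ratios without detection calls, and transcripts near 1 have little room to fall. Replicate 1 at 110 min and replicate 2 at 230 min had low 75th percentiles, and leaving both out changed no member's call in the trend. The single times, the early and late rates and the half-lives were not refitted without these arrays. Leaving out each replicate in turn gave 9 to 9 members in the trend, 0 to 0 at 10 min, 2 to 2 at 50 min (3 in all), 8 to 9 at 110 min, 9 to 9 at 230 min, 1 to 1 with unequal rates, 2 to 2 reliable half-lives, 3 to 3 pairs and 47 to 54 partner genes.

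Without the replicate block 1 member fell at 50 min and 0 had unequal rates, and at 110 min Ifrd2 was lost (8 members fell), while the block changed no member's call in the trend or at 10 or 230 min. Members with unequal rates were 0 without the level filter and 2 on the 75th percentile scale. Reliable half-lives were 1 with a constant floor, 5 with a straight line on log2 ratios, 1 on the 75th percentile scale and 1 without the 0 min arrays. Pairs with different slopes were 5 without the 230 min arrays and 5 with 1 subtracted. Partner genes that fell, 54 in all, were 34 with arrays divided by their median and 23 by their 75th percentile. Of expressed probe sets, 96.4%, 37.8% and 15.7% fell in these settings.

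Slopes in log2 per hr that turned positive on the 75th percentile scale were 0.0705 (Btg2), 0.0476 (Tob2), 0.0261 (Ifrd2), 0.14 (Cnot6), 0.27 (Pabpc1), 0.12 (Mapk9), 0.13 (Pcna), 0.16 (Hdac1), 0.16 (Hdac3), 0.15 (Sesn3) and 0.20 (Ccng1). With arrays divided by their median they were 0.14 (Pabpc1), 0.0222 (Hdac1), 0.0280 (Hdac3), 0.0109 (Sesn3) and 0.0675 (Ccng1). A common factor per array moves every slope alike. Gadd45a minus Gadd45b was 0.0110 without replicate 3, 0.00488 without the 0 min arrays and 0.00864 on log2(ratio + 1). Across the settings that leave arrays of a replicate out it ran from -0.0663 to 0.0110. Otherwise the cause was not tested. Each gene had 1 probe set, so the alternative with other probe sets gave no value.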
